A study of Mus musculus with 4 samples.

Results

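The 8 transcripts described here are Stab2, Gm10260, Gm11361, Spata7, Apobec3, Agbl1, Prss12 and Arhgap31, out of 32285 genes in the deposited tables. They were picked by symbol because their molecule counts in B or T cells differed strongly between mice of the SM/J and BL/6 strains at both ages. Here each was read in every blood lineage, to see in which of them the difference was present. In B cells, 4 of them (Stab2, Gm10260, Gm11361 and Spata7) had the higher counts in SM/J and the other 4 (Apobec3, Agbl1, Prss12 and Arhgap31) in BL/6. Since these contrasts in B and T cells chose the transcripts, their values there are a description and carry no test.

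The series profiled peripheral blood mononuclear cells of mice of the inbred strains labelled BL/6 and SM/J, aged 12 and 20 months, by droplet single-cell RNA sequencing with the 10x Genomics 3' chemistry. No genetic change or treatment is named for any group, and all groups shared the same steps of heart puncture, density gradient, slow spin against platelets and red cell lysis. The deposited matrices form 4 libraries, 1 for each strain and age. The ages were tagged and pooled before the run, with 1 pooled 10x sample for BL/6 and 1 for SM/J, so effects of strain and of the run cannot be told apart. No library has a replicate, so no test between strains or ages was possible, and the intervals given are exact 95% intervals for counting error alone.

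The 8 genes have little in common by known function. Stab2 encodes stabilin-2, a scavenger receptor that takes up hyaluronan and is best known from the endothelium of liver and spleen sinusoids. Apobec3 encodes a cytidine deaminase that restricts retroviruses, and in the mouse it is a single gene whose alleles are known to differ between strains. Agbl1 encodes an enzyme that removes glutamates from protein tails such as those of tubulin, Spata7 a protein of the photoreceptor cilium, Prss12 the serine protease neurotrypsin, which cleaves agrin, and Arhgap31 a GTPase activating protein for Rac1 and Cdc42. Gm10260 and Gm11361 are single-exon genes that the annotation tags as retrogenes. Both are near-copies of the transcript of Rps18, which encodes a protein of the small ribosomal subunit.

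In the mouse annotation used (GENCODE M21, build GRCm38, the same assembly as the submitters' mm10), Stab2 lies at chr10:86841198-87008025 on the minus strand with up to 69 exons. Gm10260 lies at chr13:97760072-97760632 on the minus strand and Gm11361 at chr13:28257528-28258134 on the plus strand, each with 1 exon. Spata7 lies at chr12:98628157-98669815 on the plus strand with up to 12 exons. Apobec3 lies at chr15:79891659-79915906 on the plus strand with up to 9 exons, and Agbl1 at chr7:76229887-77124698 on the plus strand with up to 23. Prss12 lies at chr3:123446913-123506597 on the plus strand with 11 exons, and Arhgap31 at chr16:38598340-38713274 on the minus strand with up to 12. The 8 genes stand on 7 chromosomes, and only the pair of retrogenes shares one.

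The retrogene sequences show how few letters separate their counts from those of Rps18. Positions are counted from 1 at the 5′ end of the 560-base Rps18 transcript, whose coding part runs from 58 to 513, and each change gives the Rps18 base first. Gm10260 aligned over 545 bases with 5 differences (99.1% identical): T243C, A394C, G428A, G488A and G534C. Gm11361 aligned over 540 bases with 4 differences (99.3% identical): C54T, T68A, A228C and A394C. The windows of 25 bases below are from the GENCODE transcripts, written 5′ to 3′ in the sense of each gene, with the differing base in capitals. The first window is the only difference that both retrogenes share, at chr13:97760240-97760264 (minus strand) in Gm10260 and chr13:28257960-28257984 (plus strand) in Gm11361.
Rps18 at 394: gaggacctggagAggctgaagaaaa
Gm10260 and Gm11361 at 394: gaggacctggagCggctgaagaaaa
The next windows are 2 differences of Gm10260 alone, chosen because they are its closest to the 3′ end, near which this chemistry takes its reads. G488A lies in the coding part (chr13:97760146-97760170, minus strand) and G534C in the 3′ untranslated part (chr13:97760100-97760124, minus strand).
Rps18 at 488: gccgcaggggccGaactgtgggtgt
Gm10260 at 488: gccgcaggggccAaactgtgggtgt
Rps18 at 534: tgggcctttgctGttaataaatagt
Gm10260 at 534: tgggcctttgctCttaataaatagt
The last is the nearest difference of Gm11361 alone, A228C (chr13:28257794-28257818, plus strand).
Rps18 at 228: caagagggctggAgaactcacggag
Gm11361 at 228: caagagggctggCgaactcacggag
After position 394 Gm11361 is identical to Rps18 for the remaining 162 aligned bases, so a read lying wholly there cannot be given to one gene rather than the other by its letters. Counts of Gm10260 and Gm11361 are therefore uncertain as counts of separate genes.

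After filtering, 3398 and 3102 cells of BL/6 and 2407 and 2689 cells of SM/J remained at 12 and 20 months. Their median depths were 4060, 4914, 4729 and 8837 UMIs (unique molecular identifiers, counted molecules), so the SM/J library of 20 months stood apart by depth. Between 1 and 3 cell barcodes occurred in both members of a pair of libraries from different strains, and none within a strain. Clusters of B cells and monocytes were largely made of 1 strain each, whereas the 4 T cell clusters held at least 23 cells of every library. In SM/J at 20 months, 844 of 1611 B cells lay in cluster 24, which had 15 cells at 12 months and none in BL/6. Levels are given as CPM, the UMIs of a gene per 1000000 UMIs of all genes in that lineage and library, and a ratio is log2 of CPM + 1 in SM/J over BL/6. Past the fold means a log2 ratio of at least 2 in size, which is 4-fold, in the direction a transcript was chosen for. Since fewer positive cells and less RNA per cell both lower such a sum, shares of cells are given beside it.

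**Figure D1:**
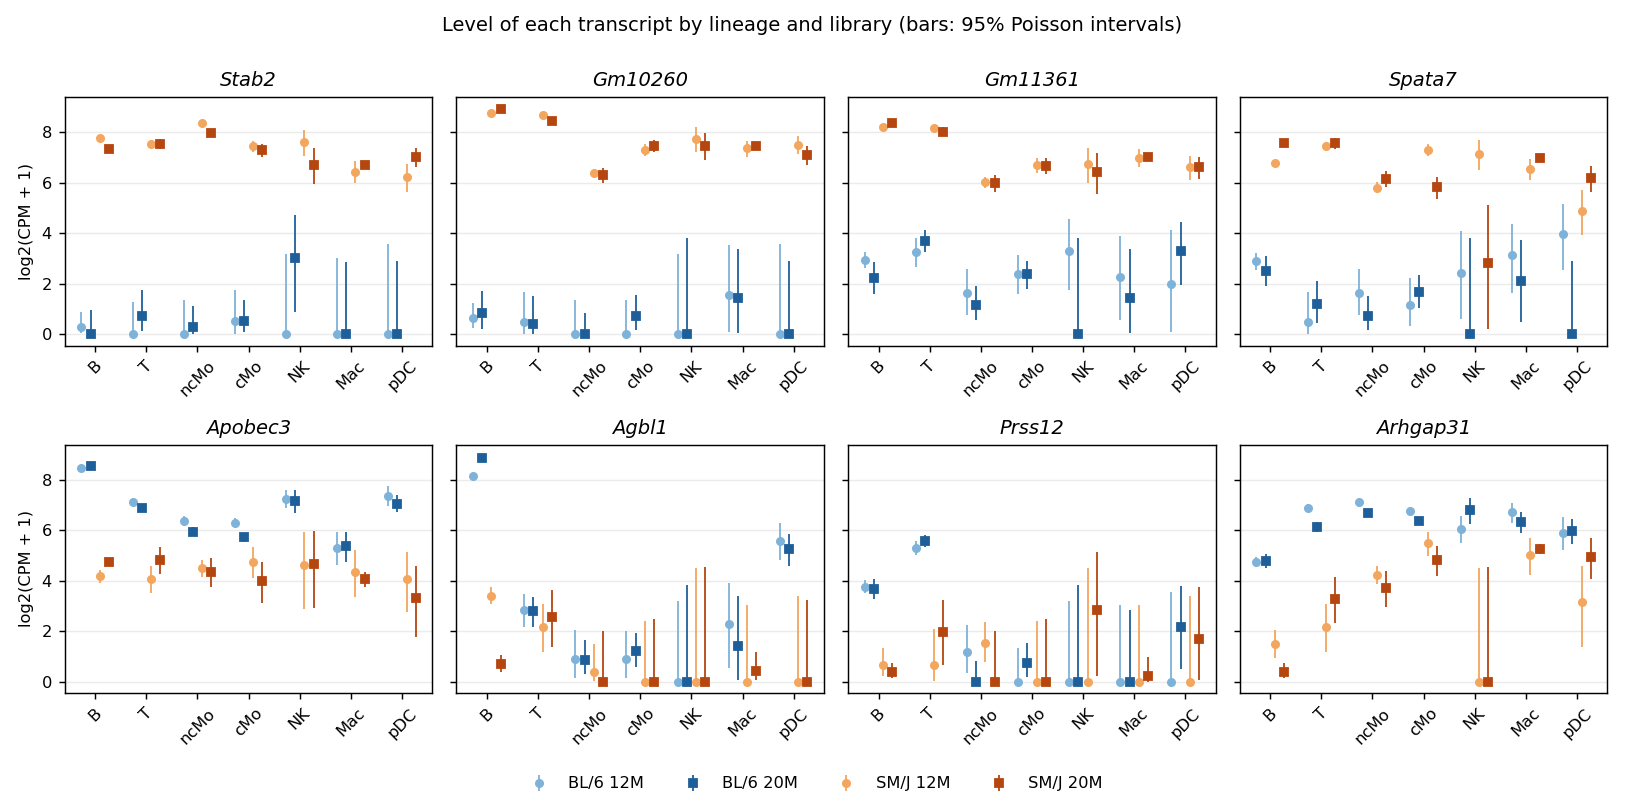
Level of each transcript as log2(CPM + 1) on the vertical axis, by lineage (B, T, nonclassical monocytes ncMo, classical monocytes cMo, NK, cavity macrophages Mac, plasmacytoid dendritic cells pDC) and library, with 95% Poisson intervals. The SM/J points of Stab2, Gm10260 and Gm11361 lie above the BL/6 points in all 7 lineages, whereas the strains of Agbl1 part in B cells and pDC and those of Prss12 in B and T cells.

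In B cells 8 of 8 transcripts were past the fold at both ages. The share of all tested genes past it was 1.76% upward and 0.724% downward at 12 months, and 3.58% upward and 2.8% downward at 20 months. In T cells 7 of 8 were past it at both ages, beside 0.744% upward and 1.89% downward of all genes at 12 months and 0.751% upward and 1.03% downward at 20 months. Those contrasts chose the transcripts, and nothing is read from these counts. In nonclassical monocytes, which the choice did not use, 5 of 8 were past it at both ages: the 4 transcripts high in SM/J and Arhgap31. The share of all genes there was 2.28% upward and 0.66% downward at 12 months and 0.97% upward and 1.04% downward at 20 months. In classical monocytes, where SM/J had 99 cells at 20 months, 4 of 8 were past it at both ages, all higher in SM/J, beside 0.854% of all genes upward and 0.936% downward at 12 months and 0.853% upward and 1.43% downward at 20 months. Monocytes of a strain come from the same library as its B and T cells, so they are another reading of these samples and not of other mice. BL/6 and SM/J monocytes also lay in different clusters, 6 and 21 for nonclassical and 5 and 23 for classical monocytes.

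Lineages other than B and T cells, which the choice did not use, were read next, where the strain with the higher level had at least 20 UMIs. A comparison that reaches this limit through the higher strain is more likely to differ, so the counts are a description. Over 9 such lineages and both ages 62 comparisons reached it, and 50 of them were past the fold. Of all genes' comparisons in these lineages that reached the limit in the strain concerned, 2.11% were past it upward and 1.9% downward. Stab2 was past it in 11 of 11 comparisons over 7 lineages, Gm10260 in 11 of 11 over 6, Gm11361 in 9 of 9 over 5 and Spata7 in 9 of 9 over 6. Apobec3 was past it in 4 of 11 and Arhgap31 in 5 of 10, with no sign change in any of these comparisons. Agbl1 reached the limit in 1 comparison, in pDC at 20 months, and Prss12 in 0, so these data do not show how far their difference extends beyond B and T cells. Near absence in 1 strain did not describe every one of the 8: Apobec3 remained detectable in SM/J in most lineages, and so did Arhgap31 in its myeloid cells and pDC.

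Stab2, the scavenger receptor, was close to missing in BL/6 and was counted in each SM/J lineage at 1 age or both. Its SM/J counts were below 20 UMIs in basophils (8 and 1) and erythroid cells (4 and 3). So they were in plasma cells (2) and neutrophils (0) of 12 months and NK cells of 20 months (17). Over all kept cells Stab2 had 4 and 7 UMIs in BL/6 at 12 and 20 months, against 3075 and 4471 in SM/J. In B cells the counts were 2 and 0 UMIs in BL/6, which is 0.232 and 0 CPM. The SM/J counts were 1464 and 3110 UMIs, which is 218 and 159 CPM. A count of 0 was set to a floor of 3 UMIs, which is 0.789 CPM in the BL/6 B cells of 20 months. The level in SM/J was 202-fold that floor. Such a fold leaves out the counting error of the higher level. At 12 months the log2 ratio was 7.47 (6.89 to 7.73). T cells had 0 and 2 UMIs in BL/6 against 316 and 192 in SM/J, or 183 and 186 CPM. The SM/J level at 12 months was 157-fold the floor, and the log2 ratio at 20 months was 6.82 (5.77 to 7.45). Nonclassical monocytes, patrolling cells of the vessel wall, had the highest level of these 3 lineages: 329 and 252 CPM in SM/J (1025 and 312 UMIs) against 0 and 1 UMI in BL/6. That is 256-fold the floor at 12 months and a log2 ratio of 7.71 (6.85 to 7.98) at 20 months.

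Stab2 molecules were spread over many SM/J cells. At least 1 UMI was seen in 56.6% and 69.7% of SM/J B cells, 51.1% and 46.8% of T cells and 75.1% and 75% of nonclassical monocytes. If the same number of UMIs had fallen on cells in proportion to depth alone, 62.1% and 72.7% of the B cells would have had one, close to what was seen. After every cell was thinned to 1000 UMIs, the shares were 17.1% and 15% in B cells and 25.8% and 22.8% in nonclassical monocytes, so the higher B cell share at 20 months was not seen at equal depth. Within SM/J B cells each cluster of 10 or more cells had Stab2, from 83.6 CPM in cluster 17 at 20 months to 372 CPM in cluster 0 at 12 months. BL/6 B cells of the same clusters had at most 1 UMI.

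Smaller lineages of SM/J also had Stab2. Classical monocytes had 173 and 157 CPM, NK cells 194 and 103, cavity macrophages 85.7 and 103, and pDC 73.4 and 129 CPM at 12 and 20 months. The BL/6 cells of these 4 lineages had between 0 and 2 UMIs in each library. The level in SM/J thus lay within 73.4 to 329 CPM over these 7 lineages, with nonclassical monocytes at the top of them at both ages. Neutrophils of SM/J at 20 months, 11 cells, had 27 UMIs or 427 CPM (281 to 621), a higher value whose interval overlaps that of these monocytes at 20 months (225 to 282), against 0 UMIs in 11 BL/6 cells. Plasma cells of SM/J at that age had 93.6 CPM.

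Because Stab2 is known as a gene of sinusoidal endothelium, a list of 10 endothelial genes was read beside it. In SM/J B cells 9 and 8 of the 10 had a UMI at 12 and 20 months, with a summed level of 191 and 133 CPM. BL/6 B cells had a UMI of 5 and 6 of the 10, with a summed level of 314 and 295 CPM. In SM/J T cells 3 and 2 of 10 had a UMI (123 and 116 CPM, BL/6 139 and 189 CPM), and Cdh5, Kdr, Tek, Clec4g, Lyve1 and Emcn were at 0 in both. In nonclassical monocytes of SM/J 5 and 4 of 10 had one (164 and 161 CPM, BL/6 82.1 and 142 CPM), with Tek, Clec4g and Egfl7 at 0 in both. Over all kept cells most of the list's UMIs were of Pecam1, which leukocytes express too. Some other genes of the list were higher in SM/J over all kept cells. Cdh5 had 24 and 31 UMIs in SM/J (1.75 and 1.05 CPM) against 4 and 6 in BL/6 (0.226 and 0.319 CPM). Kdr had 5 and 14 UMIs (0.365 and 0.474 CPM) against 1 and 2 (0.0566 and 0.106 CPM), and Lyve1 13 and 57 UMIs (0.949 and 1.93 CPM) against 2 and 15 (0.113 and 0.799 CPM). Clec4g and Vwf were lower in SM/J at both ages. Stab2 had 3075 and 4471 UMIs in the same SM/J cells, and the part of endothelial RNA in its level was not tested.

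The retrogene Gm10260 had the same outline. B cells had 5 and 3 UMIs in BL/6 and 2960 and 9447 in SM/J, which is 0.58 and 0.789 against 440 and 484 CPM, a 759-fold difference at 12 months and 613-fold at 20 months. T cells had 1 UMI in each BL/6 library against 708 and 364 in SM/J, or 410 and 353 CPM, with log2 ratios of 8.21 (7.02 to 8.67) and 8.06 (6.96 to 8.46). Nonclassical monocytes had 0 UMIs in both BL/6 libraries against 257 and 97 in SM/J (82.5 and 78.4 CPM), 64.3-fold and 124-fold the floor of 3 UMIs. The BL/6 libraries were low and the SM/J libraries high throughout, without overlap.

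Gm11361 kept a low level in BL/6. B cells had 58 and 14 UMIs in BL/6 (6.73 and 3.68 CPM) against 2015 and 6372 in SM/J (300 and 326 CPM), 44.6-fold and 88.6-fold. T cells had 22 and 37 UMIs (8.53 and 12.1 CPM) against 492 and 268 (285 and 260 CPM), 33.4-fold and 21.5-fold. Nonclassical monocytes had 5 and 6 UMIs (2.14 and 1.26 CPM) against 199 and 77 (63.8 and 62.2 CPM), 29.9-fold and 49.4-fold. Its BL/6 molecules were spread over cells: 56 of 2005 B cells held the 58 UMIs at 12 months, with at most 2 in a cell, and 33 T cells held the 37 UMIs at 20 months, with at most 3.

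Set beside Rps18, the 2 retrogenes took nearly fixed shares in SM/J. Of the UMIs of the 3 genes together, Gm10260 had 14.7% and 14.6% in SM/J B cells at 12 and 20 months, 14.1% and 14% in T cells and 15% and 15.3% in nonclassical monocytes. Gm11361 had 9.98% and 9.87%, 9.82% and 10.3%, and 11.7% and 12.2% in the same order. The retrogenes together had 24.6% and 24.5% in B cells, 24% and 24.3% in T cells and 26.7% and 27.5% in nonclassical monocytes of SM/J, with intervals that overlap between T and B cells. In BL/6 the joint share was between 0.133% and 0.278% in these lineages. The level of the retrogenes thus differed several-fold between SM/J lineages while their share of the group stayed within a few percentage points, as the plot of shares shows.

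**Figure D2:**
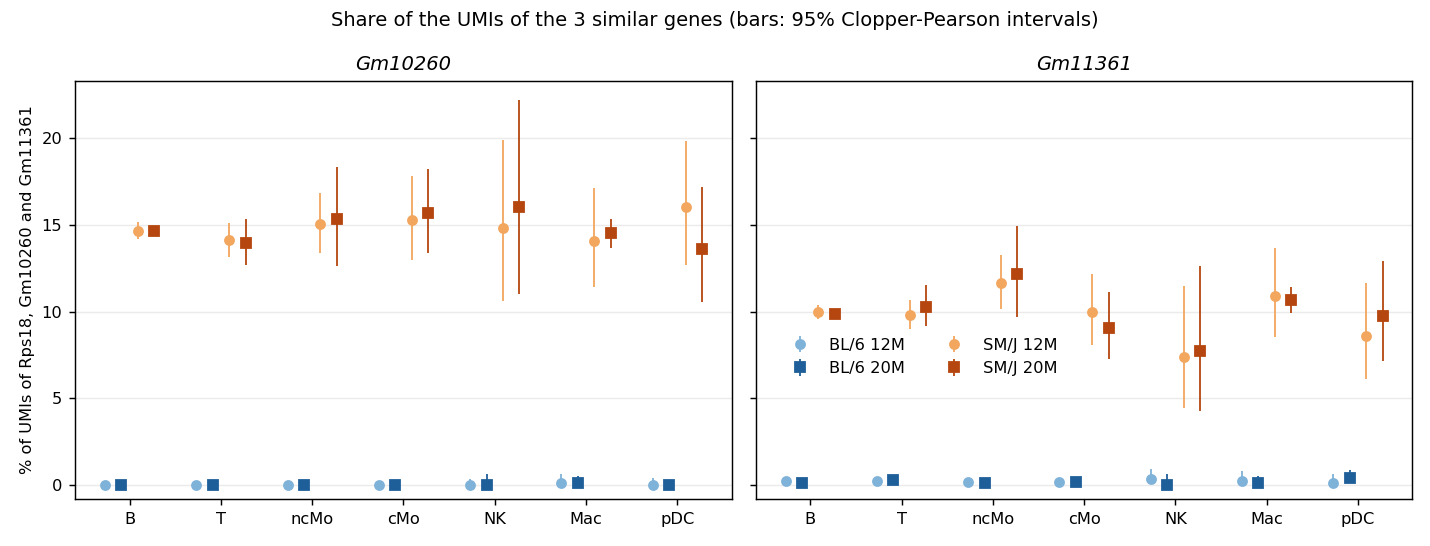
Percent of the UMIs of Rps18, Gm10260 and Gm11361 that were counted to each retrogene, by lineage and library, with 95% Clopper-Pearson intervals. SM/J points of Gm10260 lie near 15% and those of Gm11361 near 10% (14.7% and 9.98% in B cells at 12 months), whereas BL/6 points lie near 0 in all 7 lineages.

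Rps18 itself was lower in SM/J in B cells, T cells and nonclassical monocytes. B cells had 3281 and 2838 CPM of Rps18 in BL/6 against 2264 and 2495 in SM/J, log2 ratios of -0.53 (-0.56 to -0.51) and -0.19 (-0.22 to -0.16). T cells had 4057 and 4451 against 2207 and 1911 CPM, ratios of -0.88 and -1.22. Nonclassical monocytes had 1173 and 943 against 402 and 371 CPM, ratios of -1.54 and -1.34. A list of 79 cytosolic ribosomal protein genes, of which 76 or 77 were measured, had median ratios of 0.44 and 0.58 in B cells, 0.48 and 0.19 in T cells and -0.30 and -0.18 in nonclassical monocytes. At most 2 genes of that list lay below Rps18 in any of these comparisons. With the UMIs of the 3 genes summed, the ratios were -0.13 and 0.22 in B cells, -0.49 and -0.82 in T cells and -1.10 and -0.88 in nonclassical monocytes, nearer to 0 or above it but below the list's median in each case. Whether SM/J reads of Rps18 were counted to its copies was not tested, since reads were not used here. Gm26619, a long noncoding RNA that overlaps Gm10260 on the opposite strand, had at most 7 UMIs in B or T cells of any library.

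Spata7, the gene of the photoreceptor cilium, was higher in SM/J in every comparison where SM/J had at least 20 UMIs. It was concentrated in few cells. The limit leaves out low SM/J counts. In pDC of 12 months SM/J had 11 against 5 UMIs in BL/6, a ratio of 0.92 (-0.65 to 2.62). B cells had 56 and 18 UMIs in BL/6 (6.49 and 4.73 CPM) against 739 and 3739 in SM/J (110 and 191 CPM), 16.9-fold and 40.4-fold. T cells had 1 and 4 UMIs against 299 and 194, or 173 and 188 CPM in SM/J, with log2 ratios of 6.97 (5.77 to 7.44) and 6.36 (5.41 to 7.14). Nonclassical monocytes had 5 and 3 UMIs against 171 and 87 (54.9 and 70.3 CPM), ratios of 4.15 (3.19 to 5.07) and 5.45 (4.59 to 6.02). The SM/J libraries were high and the BL/6 libraries low in these lineages, without overlap.

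Only 11.9% and 21.2% of SM/J B cells had a Spata7 UMI, where 40.9% and 77.5% would have had one if its UMIs had followed depth. Those cells held 4.86 and 11 UMIs each on average and up to 68 and 150 UMIs in a single cell. In B cells, 20 cells at 12 months and 39 cells at 20 months held 50% or more of all Spata7 UMIs. In T cells it was 5 cells at each age, with a UMI in 8.33% and 10.4% of the cells where depth alone would give 54.1% and 54.2%. Nonclassical monocytes had 10.3% and 14.5% positive cells against 31.8% and 37.9%. BL/6 showed no such concentration in B cells at 12 months, where 56 UMIs lay in 47 cells. Levels of Spata7 in small lineages rest on such few cells: NK cells of SM/J had 24 UMIs at 12 months and 1 at 20 months, and the plasma cells of 20 months had 122.

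The high cells were not of 1 B cell cluster. In SM/J at 20 months Spata7 had 244 CPM in cluster 1, 225 in cluster 17, 131 in cluster 22, 186 in cluster 24 and 50.3 in cluster 3. In cluster 1, which both strains filled, BL/6 had 7.61 and 4.53 CPM against 104 and 244 in SM/J. In cluster 2 the values were 1.87 and 1.75 CPM in BL/6 and 56.5 CPM in the 64 SM/J cells of 12 months. The strain difference was thus present within B cell clusters that both strains share.

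**Figure D3:**
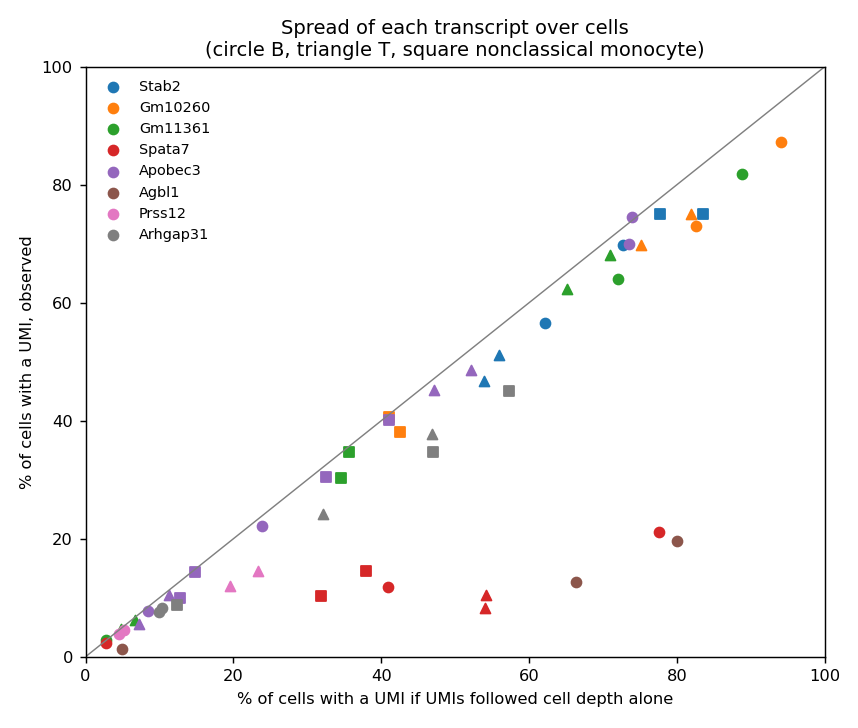
Percent of cells with a UMI of each transcript (vertical axis) against the percent expected if its UMIs followed cell depth alone (horizontal axis), for B cells (circles), T cells (triangles) and nonclassical monocytes (squares) of single libraries, with the line of equality. Spata7 in SM/J and Agbl1 in BL/6 B cells lie far below the line (21.2% against 77.5% and 19.7% against 80.1% at 20 months), whereas Stab2 and Apobec3 lie near it.

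Apobec3, the antiretroviral deaminase, was higher in BL/6 in every comparison where BL/6 had at least 20 UMIs, by an amount that differed between lineages. B cells had 3046 and 1438 UMIs in BL/6 (353 and 378 CPM) against 115 and 501 in SM/J (17.1 and 25.6 CPM), 20.7-fold and 14.7-fold. T cells had 357 UMIs in each BL/6 library (138 and 117 CPM) against 27 and 28 (15.6 and 27.1 CPM), 8.84-fold and 4.3-fold. The T cell log2 ratio at 20 months, -2.06, lay near the fold: it was -1.96 without aliquot 2 of BL/6, -1.97 without aliquot 1 of SM/J and -1.92 at a pseudocount of 5 CPM, all short of it, and -4.14 with T cells taken by marker UMIs alone. Nonclassical monocytes had 193 and 290 UMIs (82.5 and 60.9 CPM) against 68 and 24 (21.8 and 19.4 CPM), log2 ratios of -1.87 (-2.28 to -1.48) and -1.60 (-2.23 to -1.02), short of the fold. The ratio at 12 months was past it with library totals scaled by edgeR's TMM method (-2.01) and in cells thinned to 1000 UMIs (-2.23), and that at 20 months without aliquot 2 of SM/J (-2.14). The interval in B cells, -4.56 to -4.03 at 12 months, did not overlap that of nonclassical monocytes.

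The SM/J level of Apobec3 was much the same in these lineages, between 15.6 and 27.1 CPM, and the BL/6 level varied. In BL/6, B cells had the highest level. Plasma cells had 204 CPM at 20 months, from 117 UMIs, and 9 UMIs at 12 months. The pDC (166 and 132 CPM), NK cells (152 and 142) and T cells came next, and the intervals of these 3 overlap at 20 months. Classical monocytes had 77.4 and 51.7 CPM in BL/6 against 25.9 and 14.8 in SM/J, ratios of -1.54 and -1.74. Cavity macrophages had the lowest BL/6 level, 38.6 and 40.5 CPM against 19.5 and 15.7, ratios of -0.95 (-2.14 to 0.17) and -1.31 (-1.95 to -0.62). Plasma cells of 20 months had 204 against 50.8 CPM, a ratio of -1.98 (-2.75 to -1.29). Apobec3 was found in 69.9% and 74.6% of BL/6 B cells and in 7.72% and 22.1% of SM/J B cells, or 30.3% and 33% against 1.72% and 2.55% in cells thinned to 1000 UMIs. Its spread over cells followed depth (73.5% and 74% expected in BL/6 B cells). In cluster 1, shared by the strains, it had 271 and 243 CPM in BL/6 against 17.8 and 18.6 in SM/J.

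Agbl1, the deglutamylase, had most of its BL/6 UMIs in B cells. B cells had 2452 and 1751 UMIs in BL/6 (284 and 461 CPM) against 65 and 12 in SM/J (9.67 and 0.614 CPM), 29.4-fold and 750-fold. T cells had 16 and 18 UMIs in BL/6 (6.2 and 5.88 CPM) against 6 and 5 (3.48 and 4.85 CPM), ratios of -0.69 (-1.86 to 0.50) and -0.24 (-1.58 to 1.04), so no difference was detectable at this depth. With called doublets kept the T cell ratio at 12 months was -3.06. These T cell levels in BL/6 are 2.18% and 1.28% of the B cell level, beside 0.486% and 0.589% for the B cell gene Cd79a measured in the same T cells. In nonclassical monocytes Agbl1 was at 0.301% and 0.182% of its BL/6 B cell level and Cd79a at 0.536% and 0.4%. The pDC of BL/6 had 16 and 21 UMIs (47.3 and 37 CPM) against 0 in both SM/J libraries, at least 6.02-fold and 5.47-fold higher, and plasma cells of 20 months had 19 against 0 UMIs. Basophils of BL/6 had 12 and 2 UMIs (69.9 and 7.08 CPM) and erythroid cells 4 and 12 UMIs, which is 288 and 320 CPM in 2 and 5 cells, against 0 in SM/J.

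Few B cells held most Agbl1. A UMI was seen in 12.7% and 19.7% of BL/6 B cells, where depth alone would give 66.3% and 80.1%, and in 0.585% and 0.578% of BL/6 nonclassical monocytes, whose median depths were 6016.5 and 5459 UMIs against 3630 and 3430 in B cells. Positive B cells held 9.62 and 9.36 UMIs on average, and 39 and 33 cells held 50% or more of them. By cluster, 70.6% and 30.7% of the B cell UMIs lay in cluster 1, led by Lmo7 and Sox5, and 20.7% and 58.7% in cluster 2, of which Agbl1 is itself a leading gene. Cluster 1 had 878 and 812 CPM in BL/6 and 2.97 and 1.55 CPM in the 181 and 350 SM/J cells of that cluster. Cluster 2 had 951 and 1800.2 CPM in BL/6 and, at 12 months, 264 CPM in SM/J, from 56 UMIs in 11 of 64 cells. These 56 UMIs are most of the 65 in SM/J B cells of that age. With B cells taken by marker UMIs alone, in place of clusters (at least 2 UMIs of B cell markers and none of the T cell or monocyte markers), the ratio of Agbl1 at 12 months was -1.59 and short of the fold. The large cluster 0 of BL/6 had 25.9 and 73 CPM. The 8 transcripts were left out of the genes used for clustering. The clusters were still built on other genes of these cells, so the levels by cluster are a description.

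**Figure D4:**
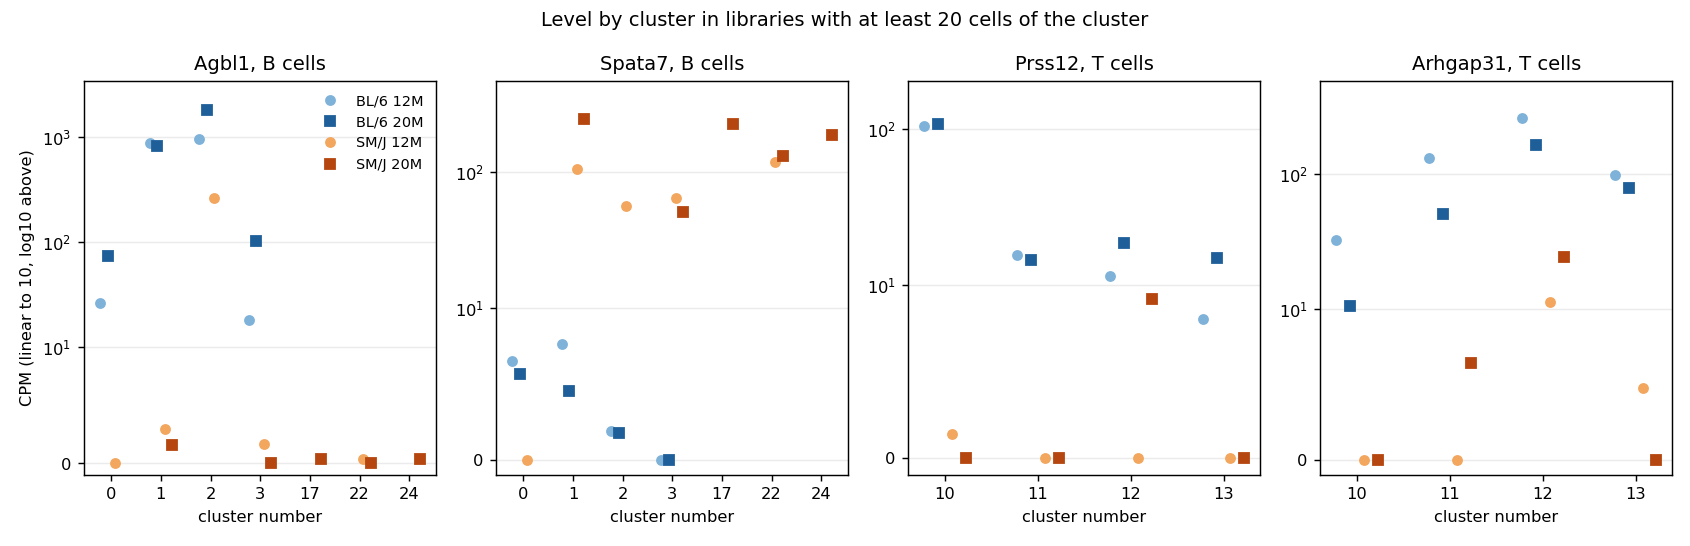
Level in CPM (linear up to 10, log10 above) of Agbl1 and Spata7 by B cell cluster and of Prss12 and Arhgap31 by T cell cluster, for libraries with at least 20 cells of the cluster. In B cell cluster 1 the strains part for Agbl1 (878 against 2.97 CPM at 12 months), in cluster 2 SM/J keeps 264 CPM, and Prss12 peaks in T cell cluster 10 of BL/6 (104 and 108 CPM).

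Prss12, the neurotrypsin gene, was counted in B and T cells of BL/6. T cells had 100 and 144 UMIs in BL/6 (38.8 and 47.1 CPM) against 1 and 3 in SM/J (0.58 and 2.91 CPM), log2 ratios of -4.65 (-5.31 to -3.19) and -3.62 (-4.93 to -2.31). B cells had 109 and 45 UMIs (12.6 and 11.8 CPM) against 4 and 6 (0.595 and 0.307 CPM), ratios of -3.10 (-3.59 to -2.38) and -3.30 (-3.63 to -2.79). At a pseudocount of 5 CPM the B cell ratios of Prss12 fell short of the fold at both ages, as they did with clusters of 1 strain left out. By marker UMIs alone the ratio at 20 months was -0.62. Nonclassical monocytes had 3 and 0 UMIs in BL/6 and 6 and 0 in SM/J, too few for a comparison.

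In T cells of BL/6, 77% and 77.8% of Prss12 UMIs lay in cluster 10, whose leading genes include the CD8 chain genes Cd8b1 and Cd8a. That cluster had 104 and 108 CPM in BL/6 and 1.37 and 0 CPM in the 104 and 54 SM/J cells. In the other T cell clusters the BL/6 levels were between 8.01 and 18.7 CPM. These include cluster 11, whose leading genes also hold Cd8b1 and Cd8a. In B cells 90.8% and 88.9% of the UMIs lay in cluster 0, led by Fcer2a and Cr2, which had 16.5 and 16.1 CPM. SM/J had 33 and 15 cells in cluster 0, with 0 UMIs. A Prss12 UMI was found in 12% and 14.5% of BL/6 T cells, against 0.877% and 0% of nonclassical monocytes at a similar or greater depth.

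Arhgap31, the GTPase activating protein, was higher in BL/6 in every comparison where BL/6 had at least 20 UMIs. The size differed between lineages. T cells had 303 and 212 UMIs in BL/6 (117 and 69.3 CPM) against 6 and 9 in SM/J (3.48 and 8.72 CPM), 33.8-fold and 7.94-fold. B cells had 224 and 101 UMIs (26 and 26.6 CPM) against 12 and 6 (1.78 and 0.307 CPM), 14.6-fold and 86.5-fold. With clusters of 1 strain left out the B cell log2 ratio at 12 months was -1.998, short of the fold. Nonclassical monocytes had 323 and 482 UMIs (138 and 101 CPM) against 56 and 15 (18 and 12.1 CPM), log2 ratios of -2.88 (-3.29 to -2.48) and -2.96 (-3.73 to -2.27). With these monocytes taken by marker UMIs alone the ratio at 20 months was -1.62, short of the fold, and without clusters of 1 strain, which left 2 BL/6 cells at 12 months, it was 4.15 at that age. NK cells had 30 and 31 UMIs against 0 in both SM/J libraries, 3.76-fold and 6.05-fold the floor of 3 UMIs. The intervals of these log2 ratios reach -1.48 and -2.16.

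Monocytes, cavity macrophages and pDC of SM/J had higher levels of Arhgap31 than its B and T cells. Some of these levels rest on few UMIs. At 12 months pDC had 3 and T cells 6 UMIs, and at 20 months nonclassical monocytes had 15 and T cells 9. NK and plasma cells of SM/J had 0 UMIs, at small totals such as 170370 and 164568 UMIs of all genes in NK cells. Classical monocytes had 107 and 81.7 CPM in BL/6 against 43.6 and 27.2 in SM/J, ratios of -1.27 (-1.80 to -0.78) and -1.55 (-2.22 to -0.95). Cavity macrophages had 104 and 79.3 against 31.2 and 37.1 CPM, ratios of -1.71 (-2.58 to -0.90) and -1.08 (-1.53 to -0.60). The pDC had 59.1 and 61.7 against 7.86 and 29.4 CPM, ratios of -2.76 (-4.65 to -1.12) and -1.05 (-2.05 to -0.12), past the fold at 12 months and short of it at 20 months. The intervals of T cells and classical monocytes did not overlap at 12 months (-5.72 to -3.77 in T cells) but did at 20 months (-3.84 to -1.97). Within T cells, cluster 12, whose leading genes include Cd4, Icos and Ikzf2, was highest in both strains, with 256 and 163 CPM in BL/6 against 11.2 and 24.4 in SM/J. Cluster 10 was lowest in BL/6, with 32.5 and 10.6 CPM. Cluster 11, whose leading genes also include Cd8b1 and Cd8a, had higher BL/6 levels at both ages. A UMI was found in 37.7% and 24.2% of BL/6 T cells and in 1.67% and 2.6% of SM/J T cells.

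Levels were also read in the 3 tagged aliquots of each library. A tag oligo marks an aliquot, and no source used here says whether an aliquot is an animal, so aliquots are not replicates. In both monocyte lineages and at both ages, 32 comparisons of aliquot ranges were made for the 8 transcripts, and in 25 the ranges of the strains did not overlap, beside 30.1% of the comparisons of all genes there. They were apart in 4 of 4 for each of Stab2, Gm10260, Gm11361, Spata7, Apobec3 and Arhgap31. In B and T cells, whose contrasts chose the transcripts, 30 of 32 were apart, and nothing is read from that count. Stab2 in B cells of 12 months ran from 0 to 0.368 CPM over BL/6 aliquots and from 207 to 226 CPM over SM/J aliquots. Spata7 in classical monocytes of SM/J at 12 months ran from 4.72 to 300 CPM over aliquots, next to 0 to 4.14 CPM in BL/6, so its strain ranges there nearly met. Prss12 was apart in B and T cells alone, and Agbl1 in B cells and in classical monocytes of 20 months. Agbl1 in SM/J B cells of 12 months ran from 1.87 to 17.1 CPM over aliquots.

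**Figure D5:**
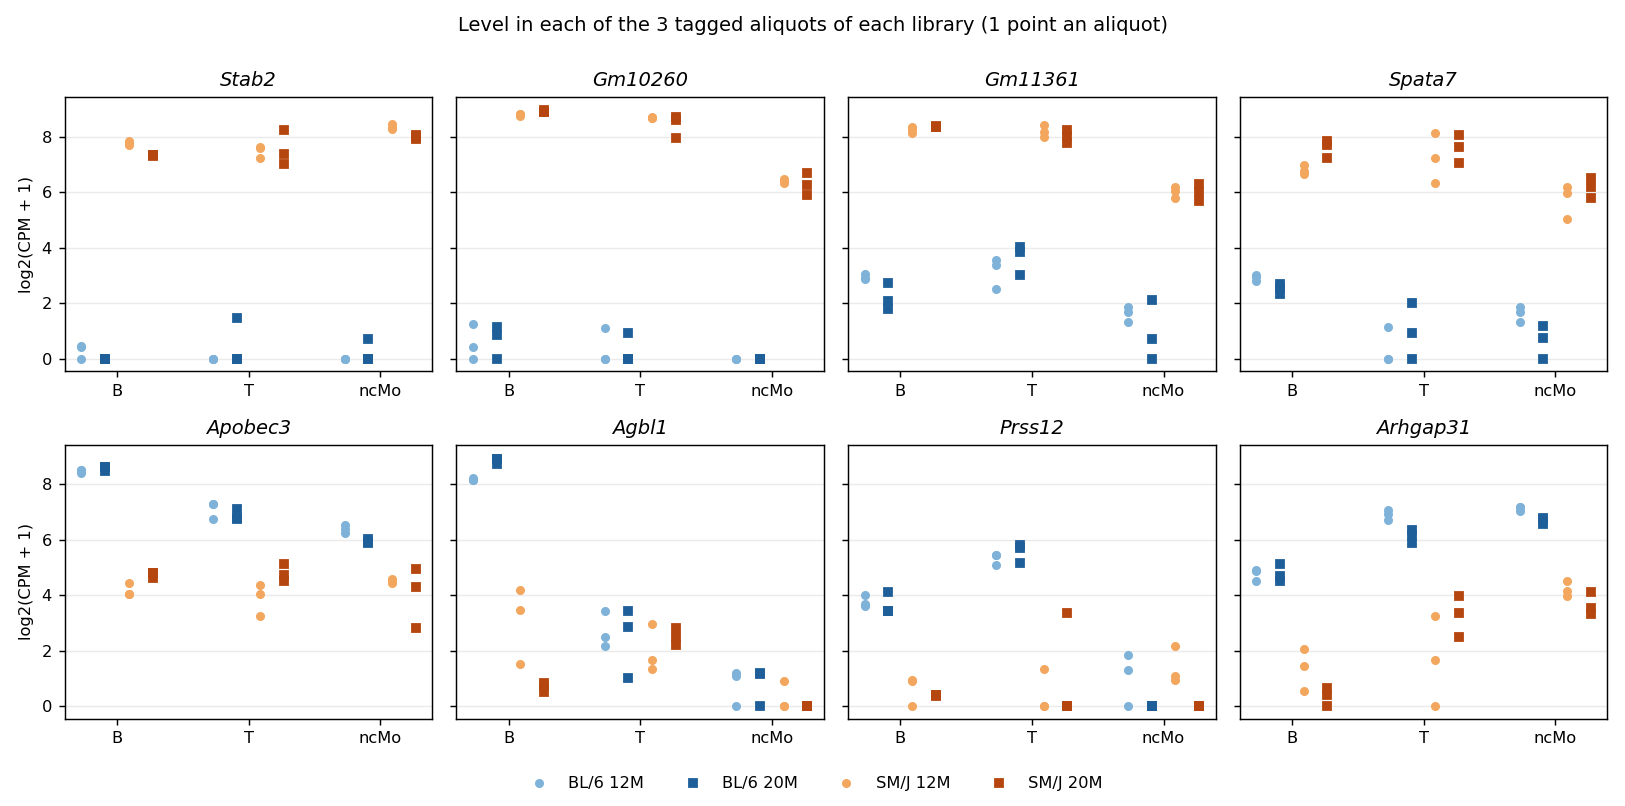
Level as log2(CPM + 1) in each tagged aliquot (1 point an aliquot, 3 to a library) in B cells, T cells and nonclassical monocytes (ncMo). SM/J and BL/6 aliquots do not overlap for Stab2, Gm10260, Gm11361, Spata7, Apobec3 and Arhgap31, and they overlap in T cells and ncMo for Agbl1.

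Age was not the contrast that chose the transcripts. The choice did ask for a strain difference in B or T cells at both ages, so age ratios there are a description. In B cells, T cells and nonclassical monocytes every age ratio was below 1 in size except that of Agbl1 in SM/J B cells. Ratios of 20 over 12 months were taken where both libraries had at least 20 cells and enough UMIs. In these 3 lineages 30 could be assessed, and 6 intervals lay above 0 and 9 below it. In SM/J B cells 6 of 6 intervals left out 0, but so did those of 55.8% of all genes there. In BL/6 B cells it was 3 of 6, beside 18.4% of all genes. T cells gave 2 of 5 in BL/6 (22.4% of all genes) and 1 of 5 in SM/J (13.8%). Nonclassical monocytes gave 2 of 2 in BL/6 (24.6%) and 1 of 6 in SM/J (14.7%), and classical monocytes 2 of 3 (21.9%) and 1 of 6 (16.5%). Both ages of a strain were tagged and pooled before a shared run, so the run does not separate them. With 1 library per age and no replicate, age cannot be told apart from other differences between the cells taken at each age.

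Agbl1 in B cells went opposite ways with age. Its ratio was 0.69 (0.60 to 0.78) in BL/6, where cluster 2, high in Agbl1, had 122 of 2005 B cells at 12 months and 139 of 951 at 20 months. In SM/J it was -2.72 (-3.11 to -2.24), where cluster 2 had 64 of 1282 and 10 of 1611 cells. Spata7 had 0.79 (0.68 to 0.91) in SM/J B cells and -1.49 in SM/J classical monocytes, from 134 and 45 UMIs. Of these 134 UMIs 98 were in aliquot 1, and without it the ratio was -0.31 (-0.96 to 0.36). Stab2 had -0.45 (-0.54 to -0.36) in B cells, 0.02 (-0.24 to 0.28) in T cells and -0.38 (-0.57 to -0.20) in nonclassical monocytes of SM/J. The small B cell ratios depended on which cells were counted: with B cells taken by marker UMIs alone that of Spata7 was -2.10 and that of Gm10260 -0.47, and with clusters of 1 strain left out that of Stab2 was 0.13.

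Arhgap31 was lower at 20 months in T cells and both monocyte lineages of BL/6, and Apobec3 in both monocyte lineages. Arhgap31 had -0.75 (-1.01 to -0.50) in T cells, -0.44 (-0.65 to -0.24) in nonclassical and -0.38 (-0.61 to -0.15) in classical monocytes, and 0.03 (-0.31 to 0.36) in B cells. In NK cells, from 30 and 31 UMIs, it had 0.73 (-0.04 to 1.49). Apobec3 had -0.24 (-0.46 to -0.03) in T cells, -0.43 (-0.70 to -0.17) in nonclassical and -0.57 (-0.85 to -0.29) in classical monocytes, and 0.10 (0.01 to 0.19) in B cells. With TMM scaled totals the Apobec3 ratios of T cells, -0.16 (-0.37 to 0.06), and B cells, 0.04 (-0.05 to 0.13), had intervals that hold 0. The makeup of BL/6 T cells also moved: cluster 11 had 177 of 451 cells at 12 months and 52 of 530 at 20 months, the summed level of 7 NK cell markers was 1074 and 98.7 CPM, and that of 6 erythroid markers 406 and 69.6 CPM. Within the 4 T cell clusters Arhgap31 had the lower level at 20 months in each, such as 256 and 163 CPM in cluster 12 and 130 and 50.7 CPM in cluster 11. Apobec3 was lower in clusters 12 and 13 and higher in clusters 10 and 11. In nonclassical monocytes the erythroid markers had 52.2 and 1152 CPM in BL/6 and 2252 and 80.8 CPM in SM/J. The summed B cell markers there had 89.4 and 110 CPM in BL/6 and 801 and 310 CPM in SM/J. The part of either list in the ratios was not tested. Prss12 had 0.27 (-0.10 to 0.65) in T cells and -0.09 (-0.58 to 0.39) in B cells, and both intervals hold 0. Of the retrogenes, Gm10260 had 0.14 (0.08 to 0.20) in SM/J B cells and -0.22 (-0.40 to -0.03) in T cells, next to 0.14 and -0.21 for Rps18. Gm11361 had 0.12 (0.05 to 0.19) in SM/J B cells. Its low level in BL/6 B cells, 58 and 14 UMIs, gave -0.72 (-1.45 to -0.0075), and that in BL/6 T cells 0.46 (-0.27 to 1.20).

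Neighbouring genes were read in the same way. Of the 48 nearest genes, 3 on each side of every transcript, 20 had at least 20 UMIs in B cells, and 3 at 12 months (1 higher in SM/J and 2 lower) and 4 at 20 months (1 higher and 3 lower) were past the fold. The shares of all tested genes in B cells were 1.76% higher and 0.724% lower at 12 months and 3.58% and 2.8% at 20 months. In T cells 15 and 14 were measured, and 1 (higher) and 0 were past it, beside 0.744% of all genes higher and 1.89% lower at 12 months and 0.751% and 1.03% at 20 months. In nonclassical monocytes 15 and 13 were measured, and 1 (higher) and 0 were past it, beside 2.28% and 0.66%, and 0.97% and 1.04%. All of those at 12 months lie beside Stab2 or Apobec3, and the one added in B cells at 20 months was 2610307P16Rik, 202 kb from Gm11361. Gm16271, an antisense RNA that overlaps Stab2 on the opposite strand, had 0 UMIs in both BL/6 libraries against 101 and 148 in SM/J B cells (15 and 7.58 CPM), and 0 against 36 in T cells and 35 in nonclassical monocytes at 12 months. Gm16268, a second such RNA, had 6 and 1 UMIs against 38 and 64 in B cells. The sources do not state whether counting used strand, so reads of Stab2 and of these partners cannot be told apart. Nt5dc3, which lies 2.81 kb from Stab2, had ratios of -0.35 and -1.11 in B cells.

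Beside Apobec3, the Polycomb gene Cbx7, which overlaps it on the opposite strand, had 50.2 and 44.7 CPM in BL/6 B cells against 11.8 and 8.24 in SM/J, ratios of -2.01 and -2.31. In T cells its ratios were -0.66 and -0.44. Nonclassical monocytes had 19 and 51 UMIs of Cbx7 in BL/6 (8.13 and 10.7 CPM) against 20 and 6 in SM/J (6.42 and 4.85 CPM). Cbx6, another Polycomb gene 57 kb away, had 56 and 32 UMIs in BL/6 B cells against 4 and 4 in SM/J, ratios of -2.23 and -2.97. No measured neighbour of Spata7, Agbl1, Prss12 or the retrogenes was past the fold in B cells at 12 months.

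Relatives of the 8 genes gave few calls. Among 18 genes of cytidine deamination and retroviral restriction, 15 were measured in B cells, and Apobec2 was past the fold at both ages, higher in SM/J: 27 and 7 UMIs in BL/6 against 142 and 1856 in SM/J, ratios of 2.42 and 5.08, opposite to Apobec3. The list's median was -0.13 and 0.34 in B cells, beside -0.08 and -0.16 for all genes. Of 14 scavenger receptors 8 and 9 were measured in B cells, with Cd68 past the fold at 20 months, and in nonclassical monocytes 7 were measured, with Colec12 past it at both ages. None of the 9 measured tubulin glutamate enzymes was past it in B cells, and none of the 4 measured in T cells. The 12 cilium partners of Spata7 gave Cep290 upward and Ahi1 downward in B cells at 20 months, and the agrin and protease list of 12 gave none.

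Likeness to other genes was measured as Pearson's r of log2(CPM + 1) over 12 points, the 4 libraries in B cells, T cells and nonclassical monocytes, among 4964 genes, as a description of these libraries. The points of a strain share a 10x run, so any gene with a strain-wide difference scores high. Closest to Stab2 were Tpm3-rs7 (0.989), Saa3 (0.983) and Smim40 (0.981). Gm8797 was first for Gm10260 (0.984) and second for Gm11361 (0.959) and Spata7 (0.973), and Gm10260 and Gm11361 had 0.974 with each other. Apobec3 was nearest to Mndal (0.928), Cstf3 (0.894) and Hist1h2bc (0.883). Agbl1 was nearest to Foxp4 (0.966), Pgap1 (0.959) and Rfx7 (0.940), Prss12 to Tnfrsf26 (0.932), Ifi206 (0.902) and Tasp1 (0.896), and Arhgap31 to Hnrnpa3 (0.941), Ogt (0.936) and Mapkapk3 (0.913).

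Free RNA of other cells was read from lineage-bound genes. Cd79a, a B cell gene, stood in T cells at 0.486% to 1.10% of its B cell level over the 4 libraries. In nonclassical monocytes it stood at 0.536% and 0.4% in BL/6 but at 8.35% and 3.22% in SM/J. Stab2 in SM/J nonclassical monocytes exceeded its B cell level at both ages, 329 against 218 and 252 against 159 CPM. Gm10260 stood there at 18.7% and 16.2% of its B cell level, Gm11361 at 21.3% and 19.1%, and Spata7 at 49.9% and 36.7%. The part of free B cell RNA in these levels was not tested. Without monocyte cluster 20, a choice made after seeing the data, 5 transcripts were still past the fold in nonclassical monocytes at each age.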

How the data were processed

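Blood mononuclear cells were measured by 10x Genomics 3' single-cell sequencing. The values deposited are whole UMI counts for each gene in each cell, without normalization; the file headers name Cell Ranger 7.0.1 and the submitters' processing notes also name Seurat 4.3.0 and mm10. Whether counting used strand or introns is not given in the sources used here. Matrices were tied to strain by the samples' titles and descriptions.

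Cells with at least 500 UMIs, 200 genes and at most 10% mitochondrial UMIs were kept. Called doublets (41, 42, 21 and 21 cells; Scrublet in scanpy 1.11.5, expected rate 0.06) were removed. All libraries were clustered together (2000 variable genes without the 8 transcripts, 30 components, 15 neighbours, Leiden resolution 1), and clusters were named from marker lists. A platelet lineage was left out of the comparisons because only BL/6 filled it. UMIs were summed per lineage and library, with a pseudocount of 1 CPM for ratios. Intervals are exact (Poisson, conditional binomial, Clopper-Pearson). UMIs are counted molecules, and intervals and the floor of 3 UMIs cover counting error only. Reads of SM/J mice were set against a reference of another strain, which can lose or move reads between similar genes. Sequences and positions come from GENCODE M21, matched by gene identifier (32158 of 32285 features).

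The members and lists were chosen with earlier results of these data known. Named genes were the 8 members, 3 neighbours on each side, Rps18 as the copies' partner, list genes past the fold at both ages in B or T cells, and the 3 genes nearest in level pattern. Other genes named from the lists or neighbours, and the 20-cell limit for age ratios, were chosen after their values were seen. Some genes and 1 list are not reported here. The scripts were tested on simulated data. Software was Python 3.11.15, numpy 2.4.6, scipy 1.17.1, pandas 2.3.3, igraph 0.11.9 and, for TMM scaling alone, R 4.3.3 with edgeR 4.0.16.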

Additional observations from a re-analysis of the deposited data

Results flagged for a closer look

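The change with age went opposite ways in 2 groups for 6 pairs of values. None of these differences was tested, since each rests on 1 library per strain and age.

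In B cells, the age ratio (log2, 20 over 12 months) of Agbl1 in SM/J minus that in BL/6 was -3.42, from -2.72 in SM/J and 0.69 in BL/6. For Gm11361 in B cells it was 0.84, from 0.12 in SM/J and -0.72 in BL/6. With B cells taken by marker UMIs the SM/J value of Gm11361 was -1.002, and with clusters of 1 strain left out it was -0.0020.

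Within a strain, lineages went opposite ways for 4 transcripts. In SM/J, the age ratio of Stab2 in plasmacytoid dendritic cells minus that in NK cells was 1.70 (0.80 and -0.90). For Spata7 the same pair gave 5.62 (1.30 and -4.33), with 24 and 1 UMIs in NK cells. Of the 24 UMIs at 12 months, 20 lay in 1 cell. The ratio of Gm10260 in SM/J B cells minus that in T cells was 0.35 (0.14 and -0.22), and by marker UMIs both values changed sign (-0.47 and 0.18). In BL/6, the ratio of Apobec3 in B cells minus that in classical monocytes was 0.67 (0.10 and -0.57), and by marker UMIs the B cell value was -0.0237.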

How the results depend on the processing

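In B cells, T cells and nonclassical monocytes, strain ratios of the 4 transcripts high in SM/J kept their direction in all 25 alternative settings. Each ratio was at least 2 in size, with no minimum of UMIs asked for. Without clusters of 1 strain, nonclassical monocytes kept only 2 and 1 BL/6 cells, so their ratios in that setting rest on almost no BL/6 UMIs. No paired analysis was possible because each strain and age has 1 library and the samples share no replicate but the number 1. Leaving out each aliquot in turn gave 8 to 8 transcripts past the fold in B cells at either age, 7 to 7 and 6 to 7 in T cells, and 5 to 5 and 5 to 6 in nonclassical monocytes. It gave 6 to 6 transcripts past it in every assessed comparison, and 78 to 80 of 88 to 92 comparisons. With every aliquot it was 80 of 92, over all lineages, B and T cells included. Of the 6, Prss12 was assessed in B and T cells alone and Agbl1 in 3 comparisons. These counts, and those of comparisons under other settings below, include the contrasts that chose the transcripts. They also enter through the higher strain, and no share of all genes was taken, so nothing is read from them. Leaving out an aliquot gave 5 to 8 higher and 7 to 10 lower age ratios.

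With clusters of 95% or more 1 strain left out, 0 transcripts had the minimum of 20 UMIs and were past the fold in nonclassical monocytes at 20 months, and 2 in every assessed comparison. Only 2 and 1 BL/6 cells remained in that lineage at 12 and 20 months, and the ratios there turned to 4.15 at 12 months for Arhgap31 and to 3.85 and 4.37 for Apobec3. In B cells settings other than leaving out an aliquot gave 6 to 8 transcripts past the fold at either age. Cells thinned to 1000 UMIs gave 2 transcripts past the fold in nonclassical monocytes at 20 months, and 41 of 46 comparisons. Lineages taken by marker UMIs alone, in place of clusters (at least 2 UMIs of B cell, T cell or monocyte markers and none of the other lists), gave 45 of 51. With no minimum of UMIs 147 comparisons were assessed and 0 transcripts were past the fold in all of theirs. Prss12 in B cells fell short of the fold at a pseudocount of 5 CPM (-1.66 and -1.67) and with 1-strain clusters left out (-1.35 and -0.96), and at 20 months by marker UMIs (-0.62). Age calls changed with 1-strain clusters left out (3 higher, 4 lower) and in thinned cells (2 higher, 3 lower). Age ratios in B cells that changed sign by marker UMIs were those of Apobec3 in BL/6 (-0.0237) and, in SM/J, Gm10260 (-0.47), Gm11361 (-1.002) and Spata7 (-2.10). Gm10260 in SM/J T cells became 0.18. With 1-strain clusters left out Stab2 became 0.13, Gm11361 -0.0020 and Apobec3 -0.0179 in SM/J B cells. The cause was not tested. TMM scaling shifted ratios in B cells, T cells and both monocyte lineages by at most 0.22. Under it the age intervals of Gm11361 in SM/J T cells (-0.23) and Spata7 in SM/J nonclassical monocytes (0.39) no longer held 0.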
